A study of Homo sapiens with 6 samples.

Results

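The genes described here encode the enzymes that build cholesterol and fatty acids, together with the proteins that switch these enzymes on and off. The list held 31 genes, taken by name as the classical members of both routes, of 63677 gene identifiers in the deposited count table. Of these, 30 were found in the table, and all 30 passed the filter on low counts, among 21729 genes tested. The remaining gene, ACACA (acetyl-CoA carboxylase, the committed step of fatty acid synthesis), had no matching identifier and was not analysed here. The list was divided into 18 enzymes of the sterol arm, 7 enzymes of the fatty acid arm (6 of them measured), 5 regulators and 1 sterol transfer protein.

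RNA was measured by poly(A) RNA-seq in UWB1.289, an established human ovarian cancer cell line that lacks functional BRCA1 and is given the genotype WT in the sample labels, so that all 6 samples share that background. The drug Olaparib blocks PARP enzymes, which detect breaks in DNA strands and help to mend them. The 3 Olaparib samples received 4 µM of the drug in fresh medium for 24 h, and the 3 DMSO samples received the solvent alone in fresh medium for the same 24 h. The design text of the series gives a dose of 10 µM instead, and the 4 µM of the sample labels is used here. A single cell line, a single dose and a single time were studied, in medium with serum. The study describes 3 dishes per condition and also calls its 3 replicates independent. Whether each replicate was a single dish is not stated, so p-values measure the spread between replicates of 1 line.

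The 6 samples held 35360458 to 39640775 counts, with scaling factors of 0.9946 to 1.013, and mitochondrial genes took 5.68% to 6.11% of them. Replicates of a group differed by more than sampling noise in each pair, so all 6 entered as separate samples. Epithelial markers were abundant, with a summed level of 8950 to 9560 CPM (counts scaled to a common library total). Of the 7, WT1 was at 10 counts or fewer over all samples and was not tested. Among the 6 tested, edgeR called 1 higher with Olaparib (PAX8), DESeq2 2 and limma voom 3, PAX8 among them, and each called 0 lower. Over all genes tested, edgeR called 2.15% higher and 1.21% lower. EPCAM was lower in value without a call, with a log2 fold change (Olaparib minus DMSO) of -0.039. Markers of leukocytes summed to 2.75 to 3.79 CPM and those of adipocytes to 0.133 to 0.353 CPM, with CD3E, ADIPOQ and LEP at 10 counts or fewer. Fibroblast markers summed to 43.8 to 49.2 CPM, with DCN and LUM at 10 counts or fewer. Endothelial markers summed to 41.6 to 42.9 CPM with Olaparib and 43.1 to 45.9 CPM with DMSO, with PECAM1 at 10 counts or fewer. Of the 2 tested, edgeR and limma voom called 1 higher with Olaparib (VWF in edgeR), and DESeq2 0, where edgeR called 2.15% of all genes higher. VWF averaged 67.4 normalized counts with Olaparib and 41.8 with DMSO. The more abundant CDH5 went the other way without a call, at 1526 and 1606. The part of these markers in the results below was not tested.

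Both routes start from acetyl-CoA in the cytosol. In the sterol arm, acetyl-CoA is joined and reduced to mevalonate, turned into isoprene units and squalene, and squalene is then closed into a ring system and trimmed to cholesterol. In the fatty acid arm, acetyl-CoA is carboxylated, built into palmitate, and then lengthened and desaturated. The transcription factors SREBP-2 and SREBP-1, made from SREBF2 and SREBF1, drive the sterol and fatty acid arms respectively. Their precursors sit in the endoplasmic reticulum with the escort protein SCAP. When sterols are plentiful, INSIG1 and INSIG2 hold SCAP there, and when sterols are scarce SCAP carries the precursors to the Golgi, where they are cut and released. Tumour cells often run both routes at a high rate to supply membranes.

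Promoter sequences are shown for 3 members on which the description turns, because binding sites near the start of transcription are the way SREBPs reach these genes. They are ELOVL6, the only member that passed the test, MVD, the member with the largest rise in value, and SREBF2, the only one of the 26 members with a promoter in the table that held the sterol regulatory element in the form searched. Sequences come from RefSeq promoters of GRCh38.p14, limited to the longest stretch before the RefSeq start that lies outside the exons annotated for that gene by GENCODE 44, and are written 5′ to 3′ along the strand of the gene. Capitals mark matches, on either strand, to the sterol regulatory element TCACNCCAC, the CCAAT box CCAAT that binds NF-Y, the GC box GGGCGG that binds Sp1, and the E-box CACGTG. The ELOVL6 stretch is chr4:110198654-110198841 (minus strand), that of MVD is chr16:88663162-88663341 (minus strand) and that of SREBF2 is chr22:41832855-41833104 (plus strand).
ELOVL6: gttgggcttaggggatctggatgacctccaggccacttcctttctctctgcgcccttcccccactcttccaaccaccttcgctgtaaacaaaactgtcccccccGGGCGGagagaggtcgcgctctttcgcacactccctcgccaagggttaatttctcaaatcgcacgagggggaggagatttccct
MVD: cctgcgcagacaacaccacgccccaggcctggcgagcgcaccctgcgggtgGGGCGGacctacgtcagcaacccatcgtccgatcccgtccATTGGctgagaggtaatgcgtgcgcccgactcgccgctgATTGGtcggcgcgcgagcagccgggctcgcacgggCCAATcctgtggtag
SREBF2: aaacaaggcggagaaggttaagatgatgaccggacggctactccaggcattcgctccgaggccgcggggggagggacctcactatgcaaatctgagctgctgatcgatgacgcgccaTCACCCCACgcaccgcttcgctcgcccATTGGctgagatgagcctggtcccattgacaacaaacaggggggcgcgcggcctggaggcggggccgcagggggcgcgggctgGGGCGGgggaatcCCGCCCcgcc
The 3 stretches differ in these letters. The ELOVL6 stretch holds 1 GC box and no CCAAT box. That of MVD holds 3 CCAAT boxes and 1 GC box, and that of SREBF2 holds 1 sterol regulatory element, 1 CCAAT box and 2 GC boxes. The ELOVL6 stretch lies within the span of its gene in GENCODE 44 (chr4:110045846-110199199), so it does not cover the bases before the outermost GENCODE start. The stretches of MVD and SREBF2 lie outside the spans of their genes.

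Promoters were found for 26 of the 30 measured members, leaving out ACAT2, FASN, FDFT1 and SQLE. In the 250 bases before the start, the sterol regulatory element was present in 1 of the 26 promoters, against 0.883% of all 35116 promoters in the table. A CCAAT box was present in 17 of the 26, against 32% of all promoters. By arm, 12 of 15 sterol arm promoters and 2 of 5 fatty acid arm promoters held one. A GC box was present in 24 of the 26, against 42.6% of all, and an E-box in 3 of the 26, against 6.34% of all. Each member entered with 1 promoter, whereas the shares of all cover every promoter in the table, whatever the level of its gene. No matches of different motifs shared bases in these promoters. A match describes letters only, and the absence of a match does not speak for or against binding elsewhere.

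Transcript levels differed widely between members within both arms. Per length of transcript, FDPS (farnesyl diphosphate synthase) had the highest level of the members, at 281 CPM per kb averaged over the 6 samples, followed by DHCR7, the enzyme of the last reduction to cholesterol, at 114 CPM per kb. In the fatty acid arm, FASN (fatty acid synthase) stood at 89.0 CPM per kb, ACLY (ATP citrate lyase, the source of cytosolic acetyl-CoA) at 88.2 and SCD (stearoyl-CoA desaturase) at 85.0, so these 3 lay close together. FADS2 and FADS1, the desaturases of polyunsaturated fatty acids, stood at 56.4 and 30.0 CPM per kb. ELOVL6, which lengthens palmitate to stearate, was far lower at 3.45 CPM per kb. The regulators spanned a narrow range, from 13.7 CPM per kb for INSIG2 to 31.1 for SREBF2.

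**Figure D1:**
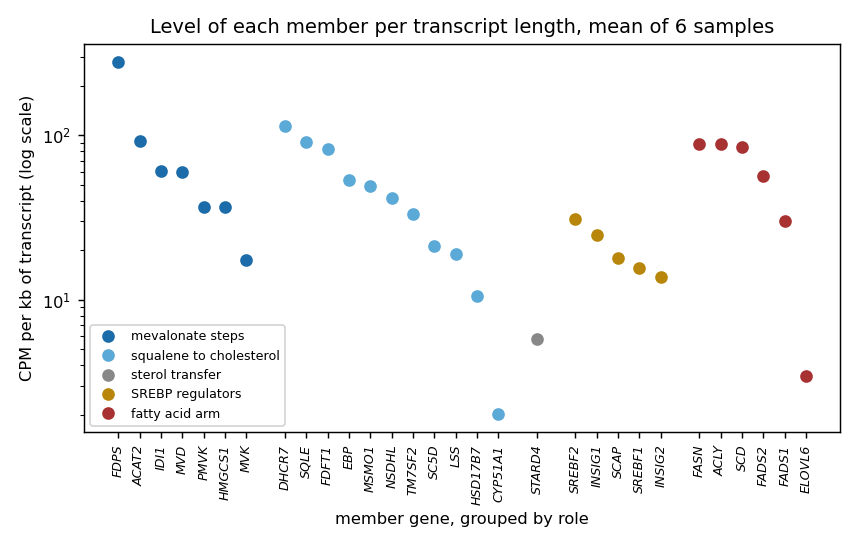
Level of each measured member in CPM per kb of its GENCODE 44 canonical transcript, on a log axis, as the mean of the 6 samples, with members grouped by role and ordered by level. Points span from 2.01 CPM per kb for CYP51A1 to 281 CPM per kb for FDPS, and ELOVL6 sits well below the other fatty acid arm genes.

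The lowest level belonged to CYP51A1 (lanosterol demethylase), at 2.01 CPM per kb. Its neighbours in the pathway were far higher, with LSS (lanosterol synthase) at 19.1 CPM per kb and TM7SF2, a sterol reductase of the following step, at 33.4. In GENCODE 44, 74.08% of the exonic bases of CYP51A1 lie under exons of other genes, against 5.898% when only genes present in the count table are considered, and whether this bears on its count was not tested. Exons of ACAT2 (cytosolic acetoacetyl-CoA thiolase) overlap those of TCP1 over 17.2% of their bases, on the opposite strand. FADS1 and FADS2 overlap each other. The strand setting of the counting is not given in the sources used here, so reads from such overlaps cannot be assigned with certainty. HSD17B7, a reductase of the sterol arm, has a pseudogene, HSD17B7P2, with a mean count of 90.3, which is 14.9% of the count of HSD17B7, and reads could be split between them.

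Across the 30 measured members, 20 differed from DMSO by 5% or less, and 9 others by up to 9.01% without passing the test, whereas ELOVL6 differed by -16%. In value, 14 were higher and 16 lower, with a median log2 fold change (Olaparib minus DMSO) of -0.002, next to -0.0042 over all genes tested. At an adjusted p under 0.05 by edgeR's quasi-likelihood test, 0 members were called higher, where 2.15% of all genes tested were, and 1 member, ELOVL6, was called lower, where 1.21% of all were. DESeq2 and limma voom likewise called 0 higher and 1 lower. All members had mean normalized counts of at least 200, and among genes of that level 5.84% were called in either direction. When a fold above 1.2 was also required, 0 members were called, against 1.21% of all genes. Bulk counts cannot tell fewer cells carrying a transcript from less of it per cell.

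The precision behind these statements was high. The 95% intervals of 29 of the 30 log2 fold changes lay wholly within a 1.2-fold change in either direction, which is 0.263 on the log2 scale, the exception being ELOVL6. Taken over all members, the interval bounds ran from -0.36 to 0.22. Changes larger than 1.2-fold were thus outside the intervals of those 29 genes, whereas smaller differences could not be told from 0 for most. An unadjusted p under 0.05 was reached by 14 of 30 members (46.7%), 7 higher and 7 lower, against 14.8% of all genes and 21.6% of genes at 200 normalized counts or more. Olaparib and DMSO samples did not overlap for 10 of 30 members (33.3%), against 19.3% of all genes and 25.1% of genes at 200 normalized counts or more. Of these members 5 lay above and 5 below, where 10% of all genes lay above and 9.29% below.

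**Figure D2:**
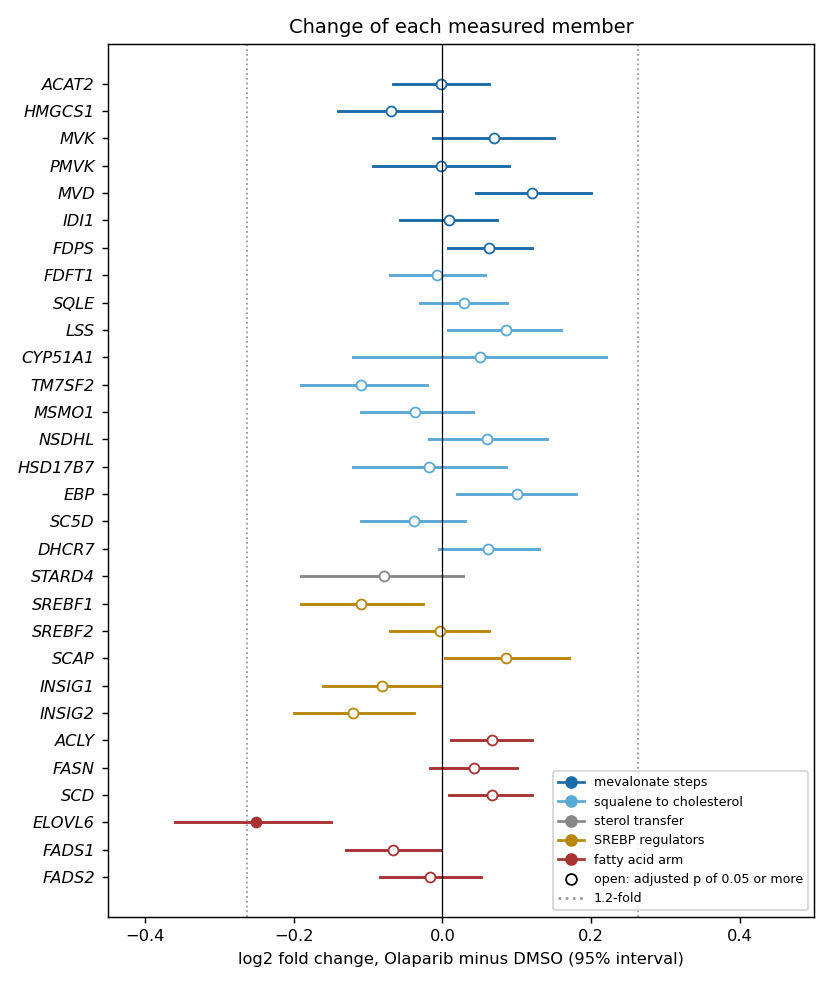
Log2 fold change (Olaparib minus DMSO) of each measured member with its 95% interval, grouped and coloured by role, with dotted lines at a 1.2-fold change. ELOVL6, at -0.25, is the only filled point (adjusted p under 0.05) and the only interval that crosses a dotted line.

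The fatty acid arm held the single member that passed the test. Normalized counts of ELOVL6 (ENSG00000170522, chr4:110045846-110199199 in GENCODE 44 on GRCh38) were 823, 750 and 756 with Olaparib and 862, 941 and 967 with DMSO. Each Olaparib sample lay below each DMSO sample, with Olaparib 1 and DMSO 1 closest to each other. The mean was 776 ± 40.4 (SD, n = 3) with Olaparib and 923 ± 55.0 (SD, n = 3) with DMSO. ELOVL6 fell by 0.25 on the log2 scale (SE 0.052, 95% interval -0.36 to -0.15), a difference of -16%, with an adjusted p of 0.00274 in edgeR's quasi-likelihood test. Leaving out each sample in turn gave -0.30 to -0.22, with adjusted p of 0.00109 to 0.0379.

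The other 5 measured genes of this arm did not pass the test, and their values went in both directions. ACLY was at 14597, 14566 and 14335 with Olaparib and 13649, 13992 and 13893 with DMSO. SCD, which makes oleate from stearate, was at 17220, 17142 and 16879 with Olaparib and 15647, 16623 and 16650 with DMSO. For both genes all Olaparib samples lay above all DMSO samples, and the log2 fold change was 0.067, with an adjusted p of 0.208 for ACLY and 0.237 for SCD. FASN, the largest count of the members, differed by 0.043 (95% interval -0.017 to 0.10), with overlapping samples. FADS1 was at 4767, 4774 and 4834 with Olaparib and 5030, 5012 and 5015 with DMSO. These were the tightest replicates of the arm and did not overlap, yet the log2 fold change was only -0.067 (SE 0.032) with an adjusted p of 0.318. FADS2 differed by -0.016 (95% interval -0.084 to 0.052), with overlapping samples.

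The sterol arm gave no call in either direction among its 18 enzymes, by edgeR, DESeq2 or limma voom. In value 10 were higher and 8 lower, the median log2 fold change was 0.019, and the range ran from -0.11 to 0.12. For all 18 the 95% interval lay within a 1.2-fold change. Unadjusted p was under 0.05 for 4 higher and 2 lower enzymes of the 18, where 14.8% of all genes reached it. All Olaparib samples lay above all DMSO samples for 3 of the 18 (MVK, FDPS and EBP), where 10% of all genes did, and all lay below for 0, where 9.29% of all genes did.

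Among the 7 enzymes from acetyl-CoA to farnesyl diphosphate, MVD, which decarboxylates mevalonate diphosphate, had the largest rise in value of any member. Its normalized counts were 3917, 4434 and 4295 with Olaparib and 3811, 3946 and 3843 with DMSO. Olaparib 1 fell within the DMSO samples and the other two lay above them. The log2 fold change was 0.12 (SE 0.039, 95% interval 0.045 to 0.20), and the adjusted p was 0.0732. The call rested on the handling of samples and genes, since the adjusted p was 0.00431 without Olaparib 1 (log2 fold change 0.18), 0.0251 with no filter on low counts, and 0.346 without Olaparib 2.

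HMGCS1, which condenses acetoacetyl-CoA to HMG-CoA, had the largest fall in value of this segment. It was at 7516, 7121 and 6869 with Olaparib and 7647, 7656 and 7250 with DMSO, so that only Olaparib 1 lay inside the range of DMSO. The log2 fold change was -0.069 (SE 0.033) with an adjusted p of 0.327. FDPS was at 15187, 15591 and 14921 with Olaparib and 14473, 14498 and 14761 with DMSO, a difference of 0.063 with an adjusted p of 0.25. MVK (mevalonate kinase) differed by 0.069, IDI1 (isopentenyl diphosphate isomerase) by 0.0089, ACAT2 by -0.0019 and PMVK (phosphomevalonate kinase) by -0.0022. The last 3 had the smallest differences of the segment, and each turned sign when single samples were left out.

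Between squalene and cholesterol, 6 of the 11 enzymes were higher and 5 lower in value. EBP, the sterol isomerase, was at 2345, 2301 and 2388 with Olaparib and 2178, 2176 and 2209 with DMSO. Its samples did not overlap, and the log2 fold change was 0.10 (SE 0.039, 95% interval 0.020 to 0.18) with an adjusted p of 0.185. TM7SF2 was at 1877, 1976 and 1841 with Olaparib and 1956, 2079 and 2095 with DMSO. Olaparib 2 lay above DMSO 1, so the groups overlapped, and the log2 fold change was -0.11 (SE 0.042) with an adjusted p of 0.189.

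The remaining 9 enzymes of this segment ranged from -0.038 to 0.086 on the log2 scale, each with overlapping samples. LSS differed by 0.086, DHCR7 by 0.061, NSDHL (a sterol dehydrogenase) by 0.060, CYP51A1 by 0.051 and SQLE, the rate-limiting squalene epoxidase, by 0.029. FDFT1 (squalene synthase) differed by -0.0069, HSD17B7 by -0.018, MSMO1 (a sterol methyl oxidase) by -0.037 and SC5D, a sterol desaturase, by -0.038. CYP51A1 had the widest interval of the members, -0.12 to 0.22, at a mean of 237 normalized counts. STARD4, a carrier of free cholesterol between membranes, was at 1072, 905 and 952 with Olaparib and 1075, 1032 and 990 with DMSO. Its samples overlapped, and the log2 fold change was -0.079 (SE 0.053) with an adjusted p of 0.528. It was -0.15 without Olaparib 1 and -0.027 without Olaparib 2.

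**Figure D3:**
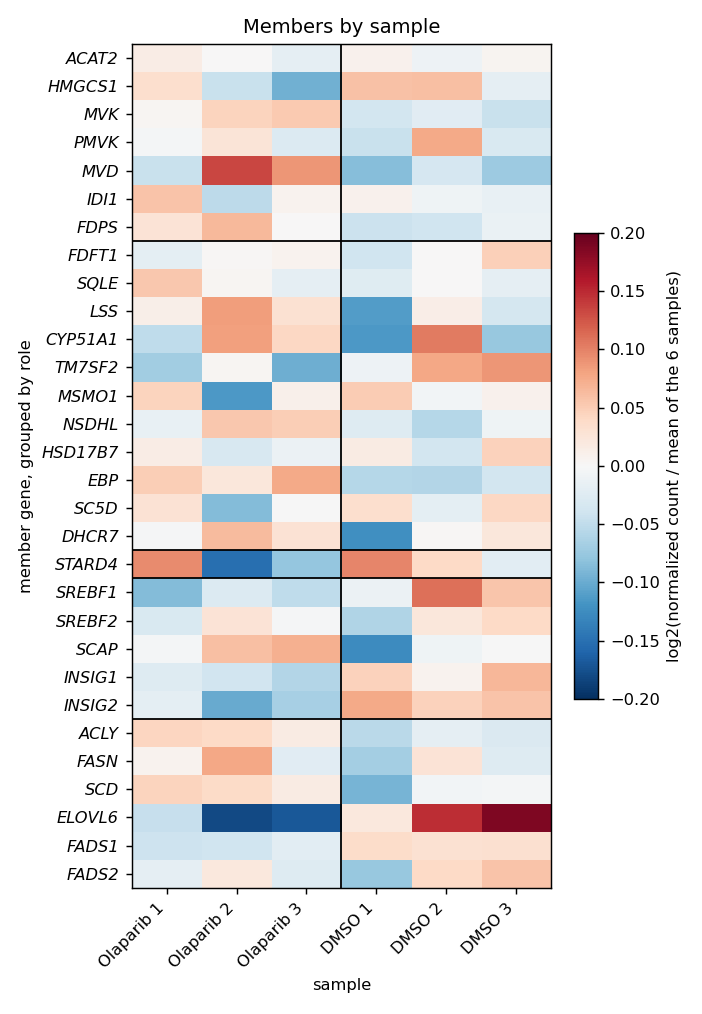
Normalized count of each measured member in each of the 6 samples, as log2 of its ratio to the mean of the gene over the samples (blue below, red above the mean), with members grouped by role from the mevalonate steps at the top to the fatty acid arm at the bottom. Most squares are pale, and ELOVL6 shows the strongest contrast between Olaparib and DMSO.

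Set side by side, the size of the difference between the arms depended on the summary. The median log2 fold change was 0.019 over the 18 sterol enzymes and 0.013 over the 6 measured fatty acid enzymes, a difference of 0.0053. By the mean in place of the median it was 0.021 for the sterol arm and -0.026 for the fatty acid arm, a difference of 0.047. By the mean over its genes of the log2 ratio to the gene's own mean, the sterol arm was at 0.0075, 0.014 and 0.0067 with Olaparib and at -0.030, 0.0024 and -0.0062 with DMSO. On the same scale the fatty acid arm was at -0.0021, -0.0072 and -0.034 with Olaparib and at -0.039, 0.037 and 0.036 with DMSO. The Olaparib samples of the sterol arm thus lay above those of DMSO by a small margin, and in the fatty acid arm they fell between DMSO 1 and the other two. The sterol level minus the fatty acid level was 0.0096, 0.022 and 0.041 with Olaparib and 0.0093, -0.034 and -0.042 with DMSO. Each Olaparib sample lay above each DMSO sample, although Olaparib 1 and DMSO 1 were almost equal.

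The order of the arm medians turned on single genes and single samples, and the difference in means on ELOVL6. Without ELOVL6, a choice made after its values were seen, the fatty acid median was 0.043, the difference between arm medians was -0.024 and that between arm means was 0.002. With ACLY left out of both arms the difference in medians was 0.035, and without single samples it ran from -0.015, without Olaparib 1, to 0.035, without Olaparib 2. The difference in means ran from 0.037 to 0.062 without single samples. DMSO 1 was the lowest of the 6 samples for 14 of the 30 members, 8 of them sterol enzymes and 4 of them fatty acid enzymes. Without DMSO 1, the log2 fold change of DHCR7 was 0.020, that of SCD 0.040 and that of SCAP 0.049.

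The regulators showed no call by edgeR, DESeq2 or limma voom, where edgeR called 2.15% of all genes higher and 1.21% lower. At an unadjusted p under 0.05 by edgeR, 1 of the 5 was higher and 3 were lower. Such a p was reached by 14.8% of all genes and 21.6% of genes at 200 normalized counts or more. All Olaparib samples lay below all DMSO samples for 3 of the 5 (INSIG2, INSIG1 and SREBF1), where 9.29% of all genes did. At 200 normalized counts or more, groups did not overlap in either direction for 25.1% of genes. In value 4 of the 5 were lower, with a median log2 fold change of -0.081. INSIG2 was at 1806, 1708 and 1748 with Olaparib and 1929, 1890 and 1904 with DMSO. All Olaparib samples lay below all DMSO samples, and the log2 fold change was -0.12 (SE 0.041, 95% interval -0.20 to -0.038) with an adjusted p of 0.11. INSIG1, itself a classical target of SREBP-2, was at 2663, 2642 and 2604 with Olaparib and 2799, 2724 and 2841 with DMSO. Its samples did not overlap either, and the log2 fold change was -0.081 (SE 0.038) with an adjusted p of 0.312.

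SREBF1 was at 2710, 2825 and 2779 with Olaparib and 2855, 3107 and 2990 with DMSO. The samples of the 2 groups did not overlap, although Olaparib 2 and DMSO 1 were within a few percent. The log2 fold change was -0.11 (SE 0.040, 95% interval -0.19 to -0.026), and the adjusted p was 0.155, or 0.0483 without DMSO 1 and 0.491 without DMSO 2. SREBF2 was at 5962, 6205 and 6078 with Olaparib and 5843, 6184 and 6260 with DMSO. The groups overlapped fully, with a log2 fold change of -0.0035 (SE 0.033) and an adjusted p of 0.982. SCAP was at 2836, 2965 and 2988 with Olaparib and 2607, 2829 and 2842 with DMSO. Here Olaparib 1 lay inside the DMSO range, and the log2 fold change was 0.086 (SE 0.041) with an adjusted p of 0.307. The abundance of these transcripts says nothing of how much SREBP was cut and released, which was not measured.

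Other genes of lipid metabolism were read from 5 further lists. Among 12 other genes of sterol synthesis and SREBP processing, 0 were called, 7 were higher and 5 lower in value, and the median was 0.019. Among 12 genes of sterol transport, esterification and the response to oxysterols, 0 were called and 11 were higher in value, with a median of 0.039. Among 24 other genes of fatty acid synthesis and activation, 0 were called and the median was 0.0062, and among 11 genes of fatty acid oxidation 0 were called, with a median of -0.0063. By DESeq2 and limma voom these 4 lists gave 0 calls as well, with no adjusted p from DESeq2 for 5 of the genes. At an unadjusted p under 0.05 by edgeR, the first list had 1 gene higher, the second 1 lower, the third 2 higher and 4 lower, and that of oxidation 0. Over all genes tested, 14.8% reached such a p, and edgeR called 2.15% higher and 1.21% lower. Among genes at 200 normalized counts or more 21.6% reached it, although each of these 4 lists also holds genes below that level.

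The remaining list, of triglyceride synthesis and storage, gave 1 call higher among 8 genes, where 2.15% of all genes were called higher, and 0 lower. It holds enzymes of the route that joins fatty acids to glycerol, and also PLIN2, a coat protein of lipid droplets, and PNPLA2, a lipase that breaks triglyceride down. All 8 were higher in value, with a median of 0.076. At an unadjusted p under 0.05 by edgeR, 4 of the 8 were higher and 0 lower. Such a p was reached by 14.8% of all genes and 21.6% of genes at 200 normalized counts or more. All Olaparib samples lay above all DMSO samples for 5 of the 8 (GPAM, AGPAT2, DGAT1, PLIN2 and PNPLA2), where 10% of all genes did. All 8 had mean normalized counts of at least 200. At that level groups did not overlap, in either direction, for 25.1% of genes, against 19.3% of all genes. Of the 5, only GPAM was called. GPAM, the mitochondrial acyltransferase that starts triglyceride synthesis, was at 753, 716 and 684 with Olaparib and 639, 638 and 534 with DMSO. Its samples did not overlap, with DMSO 3 the lowest of the 6. GPAM rose by 0.25 on the log2 scale (SE 0.058, 95% interval 0.13 to 0.37), with an adjusted p of 0.00912, which became 0.167 without DMSO 3 and 0.0584 without Olaparib 1. GPAM and ELOVL6 thus differed from DMSO by similar amounts in opposite directions.

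**Figure D4:**
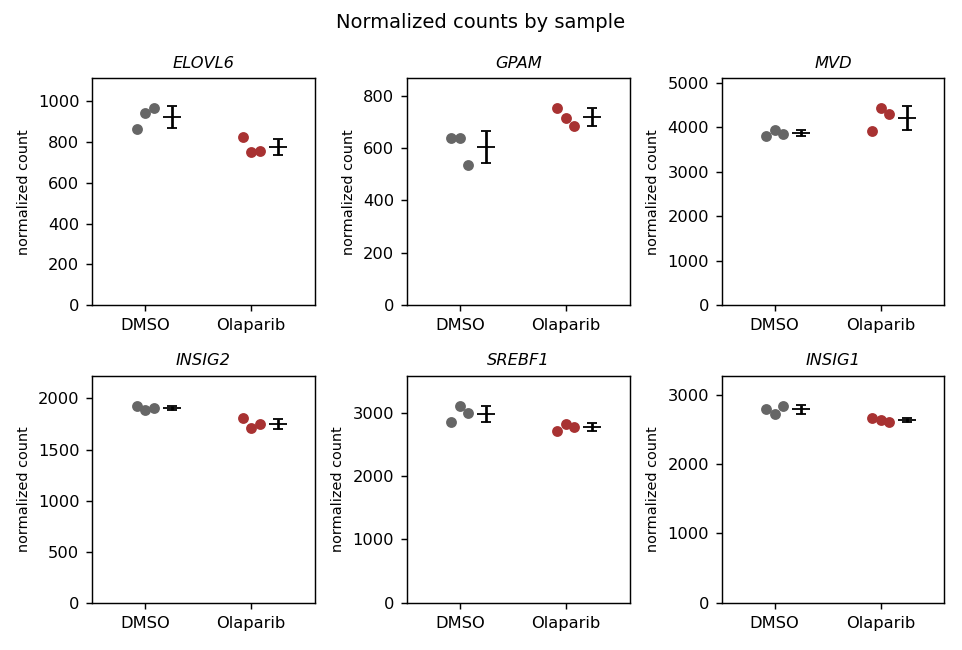
Normalized counts of 6 genes in each sample (points, DMSO grey and Olaparib red) with the mean ± SD of the 3 samples of each group (black), on axes that start at 0. ELOVL6 is lower and GPAM higher with Olaparib, whereas MVD, INSIG2, SREBF1 and INSIG1 differ by less and did not pass the test.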

How the data were processed

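Poly(A) RNA from 3 Olaparib and 3 DMSO samples was sequenced. The authors trimmed adapters with Trimmomatic, mapped reads with STAR to the human genome (hg38) and counted them per gene with featureCounts, and the deposited values are raw counts per Ensembl gene identifier. Identifiers were matched to GENCODE 44 (81.9% of 63677 had an entry). The rest had none, so the annotation behind the counts may differ from the one the study names, and coordinates, lengths and overlaps printed here are those of GENCODE 44 (GRCh38), not of the count table. Members and lists were chosen with earlier results of these data known. Genes with more than 10 counts in total were kept, as in the study's methods, which left 21729. Counts were scaled by TMM and tested with edgeR 4.0.16 (glmQLFit and glmQLFTest, R 4.3.3), without covariates, with Benjamini-Hochberg adjustment over all genes tested. A gene was called at an adjusted p under 0.05. Intervals come from the quasi-likelihood fit. Normalized counts are counts divided by the effective library size, times its mean over samples. Levels are CPM divided by the length in kb of the GENCODE canonical transcript. A set of 200 simulated changed genes was used to check the fit. The depth of 35360458 to 39640775 counts gave a common biological coefficient of variation of 0.0353.

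All members are given. Values by sample are printed for those with an adjusted p under 0.05, the largest rise and fall of each role group and the regulators, and for a few others whose groups did not overlap or that lay at an extreme, chosen after their values were seen. Of the other lists, genes with an adjusted p under 0.05 are named. Alternatives were DESeq2 1.42.0, limma 3.58.1 with voom, DESeq2 size factors, other filters, an adjusted p of 0.1, the replicate number as a block, each sample left out in turn, and other borders of the arms. The labels do not say whether equal replicate numbers mark paired samples, and the main fit treated the samples as unpaired.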

Additional observations from a re-analysis of the deposited data

How the results depend on the processing

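The fall of ELOVL6 stayed below an adjusted p of 0.05 in every alternative run, including DESeq2 (0.00878) and voom (0.00562). Apart from samples left out, the settings left the direction and call of 193 gene values as they were, gained 4 calls and lost 1. MVD gained a call with no filter, which raised the number of members called higher to 1, and so did an adjusted p of 0.1, which gave 1. The difference between the arm medians was 0.0053 as reported, 0.035 with ACLY left out, 0.044 with ACLY in the sterol arm and -0.024 with ELOVL6 left out, the last chosen after seeing the data, and with INSIG1 and STARD4 added to the sterol arm it was -0.0099, at a sterol arm median of 0.0035. The difference between arm means, also added after seeing the data, was 0.047 as reported and 0.002 with ELOVL6 left out. VWF lost its call in DESeq2 (adjusted p of 0.071).

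With the replicate number as a block in edgeR, 2 members were called higher (MVD, adjusted p of 0.0148, and ACLY, 0.05 after rounding). That fit called 2 lower (ELOVL6, 0.00172, and INSIG2, 0.0416), of 1322 genes called in all, against 730 in the main fit. The deviations of same-numbered samples correlated at -0.0791, 0.105 and -0.104. Not every sample correlated best with its own number (Olaparib 3 with DMSO 1 at 0.226). With 3 samples per group, such correlations cannot tell whether equal numbers mark a shared day or passage.

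Leaving out each sample in turn gave 0 to 1 members called higher, 1 to 2 lower, 0 to 1 lower beyond a 1.2-fold change, and 398 to 870 genes in all. The sterol arm median was then 0.0063 to 0.036, that of the fatty acid arm -0.016 to 0.034 and their difference -0.015 to 0.035. Signs turned, without a call, for ACAT2 (-0.0078 to 0.0047), PMVK (-0.022 to 0.037), IDI1 (-0.017 to 0.037), FDFT1 (-0.026 to 0.014), MSMO1 (-0.067 to 0.010), FADS2 (-0.054 to 0.0075) and SREBF2 (-0.031 to 0.014). Without a change of sign, HMGCS1 ran from -0.10 to -0.04, FASN from 0.014 to 0.068 and CYP51A1 from 0.011 to 0.12. PAX8 lost its call without any 1 of 5 samples, at adjusted p of up to 0.206. The cause of these shifts was not tested.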
